A study of Mus musculus with 21 samples.

Results

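The DC1 wells of this mouse skin study are the middle of 3 condensate-named cell populations, and 147 of 152 such wells were kept among 1967 wells in all. They were chosen by the DC1 prefix of the well name, and 5 wells whose summed UMIs (unique molecular identifiers, tags that mark single RNA molecules) were under 1000 were left out, namely 1 well of library 4 with 68 UMIs and 4 wells of library 9 with at most 886. All cells came from back skin of CD1 mouse embryos at the stage E15.0 and were sorted into wells for SORT-seq, a plate method that counts the 3' ends of RNA. The labels name no mutation or treatment for the 9 single-cell libraries, so the reference groups are the other names in the same table: DC0, DC2 and fibroblast (Fb) wells. The 12 bulk samples of the series were not analysed here. The labels give no definition of DC0, and they do not state which markers the cells were sorted on or whether the libraries came from separate embryos.

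Dermal condensates are clusters of dermal fibroblasts that gather below the epidermal placode, stop dividing and become the signalling niche of a hair follicle. They receive WNT, FGF and hedgehog signals from the epidermis and answer with BMPs, FGF10 and secreted inhibitors. Sox2 and Sox18 encode SRY-box transcription factors of the condensate, Foxd1 a forkhead factor, Cxcr4 the receptor for the chemokine CXCL12, and Nrp2 a co-receptor for semaphorins and VEGF. Sox10 marks Schwann and other neural crest cells, and Krt5 is a keratin of basal epidermal cells, so neither is a gene of the dermal lineage.

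Library 9 held all but 29 of the kept DC1 wells, and these 29 were in libraries 1 to 7, with 2 to 8 wells in each, while library 8 held none. A DC1 well had a median of 11031 UMIs and 3665 genes, against 13810 UMIs in DC0, 12269.5 in DC2 and 19945.5 in Fb wells. The summed depth of DC1 was 1434142 UMIs in library 9 and 20122 to 163535 UMIs in each of libraries 1 to 7. The 147 wells carried 136 well numbers, of which 10 occurred in 2 or more libraries, and 0 profiles were identical. In library 9 the DC1 wells filled an unbroken block from well 1 on. In libraries 1 to 7 they lay scattered among Fb wells, where their names may come from clusters of these same cells. Genes that separate the populations there may then have been partly selected by the naming.

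All 5 markers of the population were higher in every DC1 library than in every Fb library (the plot of marker levels by library). Levels are given in CPM (counts per fixed total, a gene's UMIs relative to all UMIs of the summed wells), and gene length does not enter because each 3' tag is counted once. Sox2 (chr3:34650405-34652461, plus strand, mm10) ranged over the 8 DC1 libraries from 12.9 CPM, with a median of 106.5, to 198.7 in library 9, and from 0.263 to 2.45 in Fb. Sox18 (chr2:181669836-181671640, minus strand) ranged from 36.1, median 233, to 845 CPM in DC1 and reached 10.5 in Fb. Foxd1 (chr13:98354242-98359305, plus strand) ranged from 193, median 467, to 865 CPM, and reached 13.7 in Fb. For these 3 transcription factors the lowest DC1 library lay above the highest Fb library. Cxcr4 (chr1:128588199-128592293, minus strand) ranged from 61.4, median 135, to 398 CPM in DC1 and from 1.27 to 8.03 in Fb. Nrp2 (chr1:62703285-62818695, plus strand) ranged from 506, median 823, to 1289 CPM in DC1 and from 52.7 to 82.4 in Fb. The receptors likewise did not overlap between DC1 and Fb libraries. How many of all tested genes separated these libraries was not counted. The eGFP row, a fluorescent protein whose transgene the labels do not describe, stood at 244.97 ± 127 CPM in DC1 of libraries 1 to 7 (SD over 7 libraries) and at 1.7 ± 1.01 in Fb. Its lowest DC1 value was the 70.4 CPM of library 9.

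**Figure D1:**
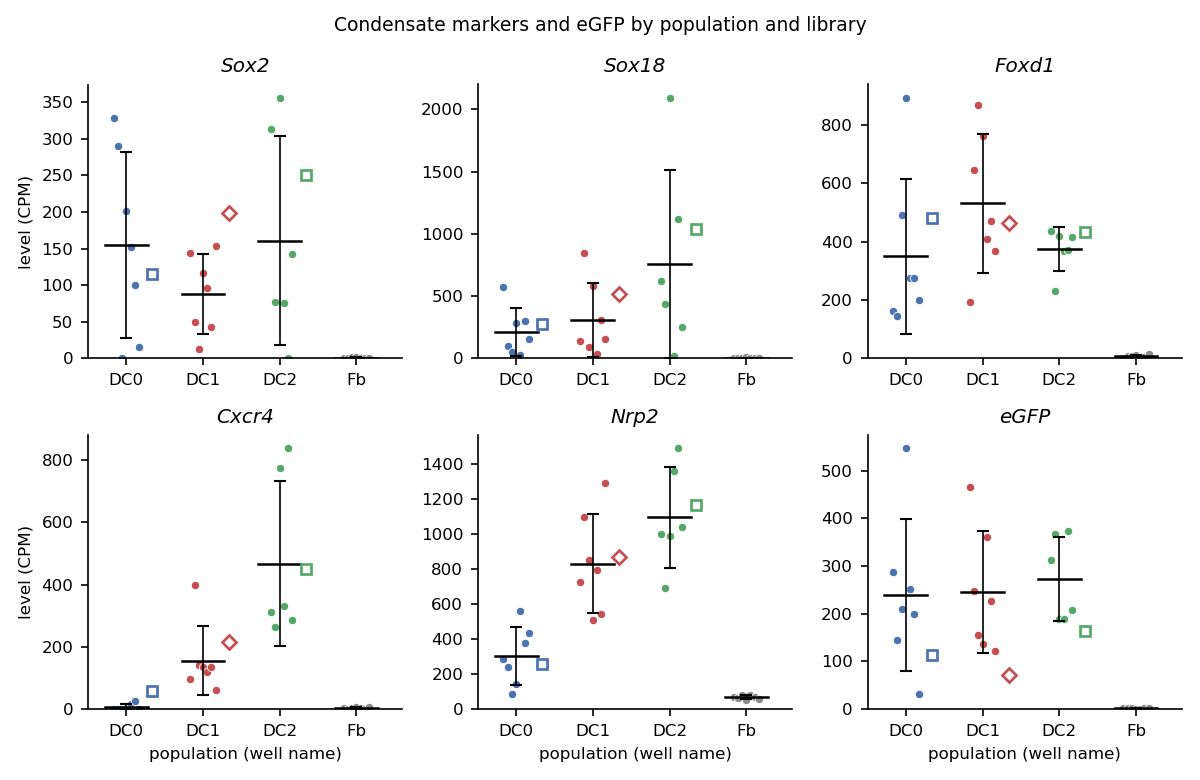
Levels of the 5 markers and eGFP in CPM (vertical axes) in DC0, DC1, DC2 and Fb wells summed per library. Dots are libraries 1 to 7 with their mean (black line) and SD (bars, cut at 0), open squares are library 8 and open diamonds library 9; all DC1 points lie above all Fb points, and the 7 DC1 dots of Cxcr4 (61.4 to 398 CPM) lie above the 7 DC0 dots (0 to 25 CPM).

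The most abundant nuclear genes of DC1 outside ribosomal protein genes included 5 collagen genes. Col3a1, Col1a2, Col6a1, Col6a2 and Col6a3, which encode fibrillar and beaded-filament collagens, stood among the 25 highest together with Lgals1, Vim, Actb and Fstl1. Col3a1 ranged from 5063, median 5807, to 10594 CPM. Cdkn1c, an imprinted inhibitor of cell division, was also among the 25, and ranged from 351, median 1418, to 7877 CPM. The spread of Cdkn1c over libraries was thus much wider than that of Col3a1, and its highest value was that of library 1.

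Against the fibroblasts of the same libraries, DC1 wells had 370 genes higher and 335 lower of 2140 tested in 7 libraries (edgeR's quasi-likelihood test, blocked by library, Benjamini-Hochberg adjusted p under 0.05), which is 17.3% and 15.7% of the genes tested. The median log2 fold change of all tested genes was 0.02. All 5 markers were higher, with log2 fold changes of 6.16 for Sox2 (SE 0.628, adjusted p = 2.14e-09), 6.47 for Sox18 (SE 0.44, adjusted p = 2.36e-13), 6.07 for Foxd1, 5.2 for Cxcr4 and 3.47 for Nrp2. The eGFP row was 7.00 higher (SE 0.412, adjusted p = 1.25e-14). Fitted alone, libraries 3, 5, 6 and 7, which share a run code, gave 261 higher and 277 lower genes, and libraries 1, 2 and 4 gave 117 and 88. The calls of the genes named against Fb here and below held in every fit that left out 1 of the 8 libraries and still tested them. Leaving out wells that held Sox10 or Krt5 was done for DC1 only, not for DC0, DC2 or Fb. Without these DC1 wells, the calls of Bmp7, Cdon, Boc, Lef1, Id1, Id2, Glis1, Thy1, Cdkn1a and Ccna2 against Fb were lost. Those of Id1 and Ccna2 were also lost in libraries 3, 5, 6 and 7 alone, and those of Id2, Hey1 and Ccna2 in libraries 1, 2 and 4 alone.

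Most of the tested signals and inhibitors were higher in DC1 than in fibroblasts. Of 12 tested genes among 32 listed signals 9 were higher and 2 lower, with a median of 2.09. A gene low in Fb could pass the filter on low counts only through condensate sums where it was high. The tallies of signals and inhibitors were thus partly set by the filter. Bmp4 and Bmp7, which encode bone morphogenetic proteins, stood at 611 ± 463 and 337 ± 250 CPM against 52.8 ± 8.34 and 28.2 ± 6.09 in Fb, and their log2 fold changes were 3.36 (SE 0.358) and 3.49 (SE 0.363). Fgf10, a fibroblast growth factor secreted by mesenchyme towards epithelium, stood at 406 ± 121 against 38.5 ± 11 CPM (3.30, SE 0.248, adjusted p = 2.31e-12). Edn3, which encodes endothelin 3, a peptide that acts on melanoblasts, was also higher (405 ± 224 against 29.8 ± 7.02 CPM). The 2 signals that were lower were Igf2, at 644 ± 231 against 4506 ± 783 CPM, and Cxcl12, at 9.16 ± 14.4 against 185 ± 20.4 CPM. Cxcl12 is the ligand of Cxcr4, so the receptor and its ligand were high in opposite populations. Of 11 tested secreted inhibitors 7 were higher and 2 lower (median 1.61), among them Hhip, which binds hedgehog proteins, with a log2 fold change of 3.53.

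Pathway read-outs differed among themselves. Gli1, a transcriptional target of hedgehog signalling, was higher in DC1 (293 ± 71.7 against 64.9 ± 5.67 CPM, 2.11 on the log2 scale), while the hedgehog co-receptors Cdon, Gas1 and Boc were lower, by fold changes of -2.33, -2.01 and -1.41. Of 9 tested WNT targets 5 were higher, with Lef1, a nuclear partner of beta-catenin, at 2.14, and 1 was lower. All 3 tested genes of FGF feedback were higher (median 1.12). In contrast, Id1 and Id2, which BMPs induce in many cells, were both lower (-1.33, adjusted p = 0.0111, and -1.68, adjusted p = 0.00393), although Bmp4 and Bmp7 were higher in the same wells. Only 3 of the 11 listed BMP targets, 3 of 9 FGF feedback genes and 7 of 15 Notch genes passed the filter on low counts. It limits these tallies as it does those of the signals. Of 7 tested Notch genes 4 were higher (median 1.40), with Hey1, a target of Notch, at 2.40.

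Of 23 tested condensate transcription factors 14 were higher in DC1 and 4 lower (median 1.70). Prdm1, a zinc finger repressor, ranged from 117, median 226, to 674 CPM in DC1 and from 8.38 to 16.2 in Fb, a log2 fold change of 4.37. Glis1, a relative of the Gli factors, was 4.13 higher. Sox11 stood at 1581 ± 440 against 116.3 ± 12.8 CPM. Nfib, a nuclear factor I family member of the dermis, was on the lower side at 51.4 ± 20.8 against 741 ± 77.2 CPM (-3.8, SE 0.33). Each of these 4 factors separated all DC1 from all Fb libraries, but the share of all tested genes that did so was not counted.

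The fibroblast programme of the matrix was low in DC1. Of 37 tested matrix genes 23 were lower and 7 higher (median -1.15), and of 14 fibroblast markers 11 were lower, with Thy1 the marker that was higher. Col1a1, the main chain of type I collagen, ranged from 526, median 1597, to 2092 CPM in DC1 and from 4358 to 11752 in Fb (-2.65, SE 0.192). Dcn, the proteoglycan decorin, stood at 623 ± 254 against 3801 ± 397 CPM. Ogn, a small leucine-rich proteoglycan, had 0 UMIs in DC1 wells of libraries 1 to 7 and 5920 in Fb wells, at least 31.5-fold lower by the limit of 3 UMIs over the group. Aspn, its relative asporin, had 2 UMIs, 72.1-fold lower (95% counting interval 19.96 to 595.5), and Lox, which cross-links collagen, had 2 UMIs, 38.0-fold lower (10.5 to 314). The exceptions on the higher side included Fbln2 (fibulin 2), Nid1 (nidogen 1) and the protease gene Adamts15.

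Against DC0, 23 genes were higher and 4 lower of 2140 tested in 7 libraries (1.07% and 0.187%), and 211 had an unadjusted p under 0.05. Libraries 3, 5, 6 and 7 alone gave 1 higher and 1 lower, and libraries 1, 2 and 4 alone 1 and 0. The higher genes numbered 14 without library 3 and 15 without library 6, and the lower genes 7, 2, 1 and 9 without library 1, 2, 5 or 7. Without the DC1 wells that held a UMI of Sox10 or Krt5, the counts were 10 and 4. That setting left 3 of libraries 1 to 7 with at least 2 DC1 wells. This comparison, the one with Fb and the one with DC2 use the same DC1 sums. Among the markers, Cxcr4 and Nrp2 were higher than in DC0. Cxcr4 ranged from 0 to 25 CPM in DC0 of libraries 1 to 7, below all DC1 values, and its log2 fold change was 2.66 (SE 0.557, adjusted p = 0.00766). The call was just lost without library 3 (adjusted p = 0.0519) or library 5 (adjusted p = 0.051). Nrp2 ranged from 84.2 to 559 CPM in DC0, and DC1 was above DC0 in 7 of 7 libraries (1.42, SE 0.251, adjusted p = 0.00151). Sox2, Sox18 and Foxd1 did not pass, with log2 fold changes of -0.48 (adjusted p = 0.868), 0.35 (adjusted p = 0.877) and 0.66 (adjusted p = 0.293).

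Of 12 tested signals 1 was higher than in DC0 and 0 lower (median 0.0031), and of 11 tested secreted inhibitors 3 were higher and 0 lower (median 0.59), where 1.07% of all tested genes were higher and the median of all was 0.02. Inhba, which encodes the activin A subunit, ranged from 19.5, median 154.8, to 244.6 CPM in DC1 and from 0 to 41 in DC0 (2.55, SE 0.467, adjusted p = 0.00173). Frzb, a secreted WNT antagonist, ranged from 60.1, median 197.01, to 337 CPM in DC1 and from 0 to 77 in DC0 (2.67, SE 0.479, adjusted p = 0.00151). Igfbp4, which binds insulin-like growth factors, ranged from 1130, median 1534, to 2122 CPM in DC1 and from 259 to 1124 in DC0 (1.15, SE 0.191, adjusted p = 0.00151). Igfbp4 did not overlap between the DC1 and DC0 libraries, and DC1 was above DC0 within 7 of 7 libraries for Frzb and 5 of 7 for Inhba. Smoc1, a BMP antagonist, was 1.22 higher (adjusted p = 0.0248), but its call was lost without library 2, 5, 6, 7 or 8 (adjusted p = 0.0552 to 0.109).

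Of 24 tested receptors 3 were higher and 0 lower (median 0.079), of 16 adhesion and motility genes 2 and 0 (median 0.13), and of 37 matrix genes 3 and 1 (median -0.043). Fzd2, a WNT receptor, stood at 519 ± 262 against 185 ± 62.6 CPM (1.27, SE 0.219, adjusted p = 0.00151). Lepr, the leptin receptor, ranged from 144.4, median 276.97, to 447 CPM in DC1 and from 28.1 to 205 in DC0 (1.98, SE 0.376, adjusted p = 0.00228). Pdlim3, which encodes an actin-associated LIM protein, ranged from 38.7, median 141, to 373 CPM in DC1 and from 0 to 86.4 in DC0 (3.06, SE 0.575, adjusted p = 0.00228). DC1 was above DC0 in 7 of 7 libraries for Fzd2 and Pdlim3 and in 6 of 7 for Lepr. Gja1, the gap junction protein connexin 43, and Nid1 were also higher (1.28, adjusted p = 0.00502, and 1.03, adjusted p = 0.00854). Adamts15 had 55 UMIs in DC1 and 2 in DC0 of libraries 1 to 7, a ratio of 25.1 after scaling to depth (95% counting interval 6.62 to 212). Lrrc15, a leucine-rich repeat membrane protein, had 28 UMIs against 1, a ratio of 25.5 (4.22 to 1044). Both passed the test, with fitted log2 fold changes of 3.13 (adjusted p = 0.00151) and 3.38 (adjusted p = 0.0133). These fitted differences were smaller than the pooled ratios. The fit also held DC0 of library 8, which had 25.9 CPM of Adamts15. The calls of Inhba, Frzb, Igfbp4, Fzd2, Lepr, Pdlim3, Gja1, Nid1, Nrp2 and Adamts15 each held in 8 of 8 fits that left out a library. Without the DC1 wells that held Sox10 or Krt5, those of Inhba, Fzd2, Lepr, Nid1, Nrp2 and Cxcr4 were lost. Those of Frzb, Igfbp4, Pdlim3, Gja1 and Adamts15 were not. Smaller or less even differences were those of Sox11 (0.98, adjusted p = 0.0116), a SRY-box factor, Klf4 (1.07, 0.0422), a Krüppel-like factor, Apod (2.76, 0.0248), the lipid carrier apolipoprotein D, and Fbln2 (0.71, 0.0298). The calls of Lrrc15 (without library 2, 3 or 6, adjusted p = 0.0519 to 0.0695), Sox11 (without library 3, 0.112), Klf4 (0.0573 to 0.237 in 7 of 8 fits), Fbln2 (0.059 to 0.16 in 7 of 8) and Apod (0.0538 to 0.166 in 5 of 8) were lost in these fits.

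The 4 genes lower than in DC0 were Twist2, Crabp1, Lum and Irx1. Twist2, a bHLH transcription factor of dermal fibroblasts, ranged from 1074, median 1224, to 1821 CPM in DC1 and from 1186 to 3815 in DC0, and was lower in 7 of 7 libraries (-0.74, SE 0.175, adjusted p = 0.0221). Crabp1, which binds retinoic acid and marks upper dermis, ranged from 298, median 1117, to 4669 CPM in DC1 and from 293 to 6879 in DC0 (-1.36, adjusted p = 0.043). These ranges overlapped, and the highest DC1 value of Crabp1 was that of library 1. Lum, the proteoglycan lumican, stood at 351 ± 131 against 668 ± 235 CPM, and Irx1, an Iroquois homeobox factor, at 28.2 ± 19.5 against 100 ± 51.2 CPM. None of the 4 calls held in all 8 fits without a library: Irx1 lost it without library 5 or 6 (adjusted p = 0.0841 and 0.116), Lum without library 1, 4 or 5 (0.0752 to 0.265), Twist2 without library 1, 2, 4 or 6 (0.0511 to 0.116) and Crabp1 without library 2, 3, 4, 5 or 6 (0.0724 to 0.221).

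Against DC2, 30 genes were higher in DC1 and 29 lower of 2140 tested in 6 libraries (1.4% and 1.36%), and 364 had an unadjusted p under 0.05. With RLE in place of TMM scaling the counts were 19 and 33, so that the higher genes no longer made up the larger share. Libraries 3, 5, 6 and 7 alone gave 5 and 11, and libraries 1, 2 and 4 alone 0 and 0. Without the DC1 wells that held Sox10 or Krt5 the counts were 0 and 0. None of the 5 markers passed. Sox18 and Cxcr4 came nearest, with log2 fold changes of -1.34 (adjusted p = 0.0552) and -1.3 (adjusted p = 0.082), and Cxcr4 was lower in DC1 in 5 of 6 libraries. Sox2, Foxd1 and Nrp2 had -0.99 (adjusted p = 0.367), 0.78 (adjusted p = 0.11) and -0.37 (adjusted p = 0.447). These counts leaned on single libraries: without library 3, 4, 5, 6, 7 or 8 the higher genes numbered 11 to 18, and without library 3, 4, 5, 6 or 7 the lower genes numbered 12 to 18.

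On the higher side was the dermal factor Twist2. Twist2 ranged from 209 to 606 CPM in DC2, wholly below the DC1 range given above (1.77, SE 0.208, adjusted p = 2.48e-06). Ccnd1, the cyclin that drives entry into the cell cycle, ranged from 413, median 726, to 1266 CPM in DC1 and from 93.1 to 628 in DC2 (1.48, SE 0.275, adjusted p = 0.00176). Both calls held in 8 of 8 fits without a library, and both genes were higher in DC1 in 6 of 6 libraries. Crabp1 stood at 357.5 ± 187 CPM in DC2 (1.99, SE 0.438, adjusted p = 0.0102), with the call lost without library 3 (adjusted p = 0.0517) or 5 (0.0769). Cyp26b1, which degrades retinoic acid, stood at 702 ± 273.6 CPM in DC1 against 306 ± 172.03 in DC2 (1.22, adjusted p = 0.0126), lost without library 3 (0.0505) or 4 (0.0856). Vdr, the vitamin D receptor, was 3.20 higher (adjusted p = 0.0412) and Eln, elastin, 2.21 higher (adjusted p = 0.0372), but these calls were lost in 6 and 5 of the 8 fits (adjusted p up to 0.163 and 0.102).

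On the lower side stood genes of Notch signalling and of secreted signals. Of 7 tested Notch genes 3 were lower than in DC2 and 0 higher (median -1.49, against 0.04 for all genes). Hey1 ranged from 12, median 50.2, to 99.4 CPM in DC1 and from 162 to 340 in DC2, with no overlap (-2.40, SE 0.398, adjusted p = 0.000401). Heyl, a second Notch target, stood at 119 ± 91.1 against 524 ± 289 CPM (-1.94, adjusted p = 0.0277), and the ligand gene Dll1 at 61.5 ± 44.7 against 231 ± 129 CPM (-1.86, adjusted p = 0.0293). The Hey1 call held in 8 of 8 fits without a library, whereas Heyl lost it without library 3, 4, 6 or 7 (adjusted p = 0.0599 to 0.121) and Dll1 without library 2, 6, 7 or 8 (0.0592 to 0.0796). Of 12 tested signals 4 were lower and 0 higher (median -0.45). Inhba ranged from 187 to 652 CPM in DC2 (-2.0, SE 0.328, adjusted p = 0.000401). Rspo3, an amplifier of WNT signals, had -1.59 (adjusted p = 0.0126), lost without library 4 (adjusted p = 0.0683) and at the threshold without library 5, and Wnt5a, a non-canonical WNT ligand, had -1.43 (adjusted p = 0.0293), lost without library 3, 4, 5 or 7 (0.0669 to 0.16).

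The calls of Tspan7, Fbln2 and Lrrc15 held in 8 of 8 fits without a library and that of Unc5b in the 6 that tested it. All 4 were lost without the DC1 wells that held Sox10 or Krt5. In libraries 1, 2 and 4 alone Tspan7, Fbln2 and Lrrc15 lost theirs, and Lrrc15 also in libraries 3, 5, 6 and 7 alone. Tspan7, a tetraspanin of the cell membrane, ranged from 0, median 56.1, to 184 CPM in DC1 and from 375 to 838 in DC2 (-2.96, SE 0.361, adjusted p = 3.06e-06). Unc5b, a netrin receptor, ranged from 0, median 48.9, to 115 CPM in DC1 and from 125 to 440 in DC2 (-2.48, SE 0.395, adjusted p = 0.00032). Fbln2 ranged from 417, median 747, to 1032 CPM in DC1 and from 1152 to 2329 in DC2 (-1.05, SE 0.168, adjusted p = 0.00032). None of these 3 genes overlapped between DC1 and DC2 libraries, but the share of all tested genes without overlap was not counted. Lrrc15 was -2.33 on the log2 scale (SE 0.459, adjusted p = 0.00339). Adamts15 lay between its neighbours: its DC1 range of 49.7 to 276.1 CPM was above the 0 to 15.4 CPM of DC0 in libraries 1 to 7 and the 25.9 CPM of DC0 in library 8, and below the 285 to 471 CPM of DC2, although the call against DC2 (-1.46, adjusted p = 0.0329) was lost without library 2, 3, 4, 5 or 6 (0.0556 to 0.125). Stmn2 and Gap43, both known from growing axons, were also lower than in DC2 (-1.95, adjusted p = 0.0238, and -1.47, adjusted p = 0.0488), and the calls were lost without library 3, 4 or 5 for Stmn2 (0.0625 to 0.205) and in 7 of 8 fits for Gap43 (0.0558 to 0.181).

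**Figure D2:**
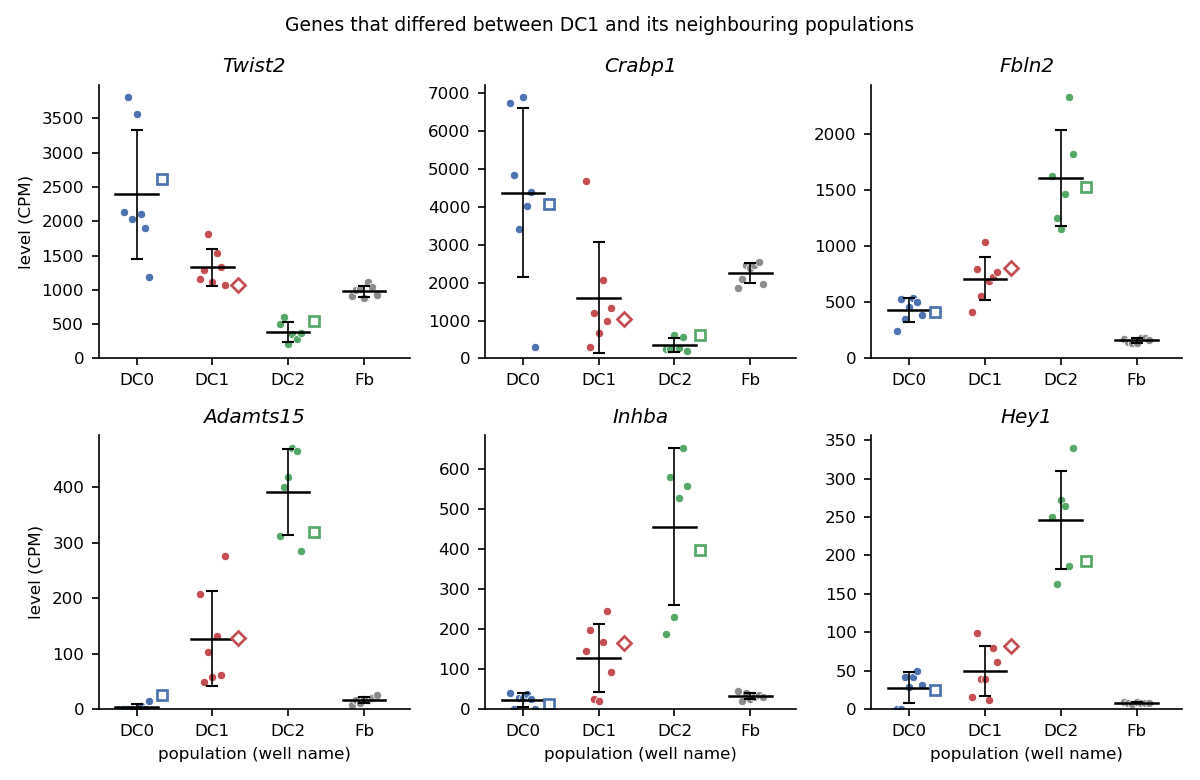
Levels in CPM (vertical axes) of Twist2, Crabp1, Fbln2, Adamts15, Inhba and Hey1 in DC0, DC1, DC2 and Fb wells summed per library, with dots for libraries 1 to 7, their mean (line) and SD (bars, cut at 0), open squares for library 8 and open diamonds for library 9. The DC1 values of Adamts15 (49.7 to 276.1 CPM) lie between those of DC0 and DC2, and the DC1 values of Twist2 (1074 to 1821 CPM) lie above all DC2 values.

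Library 9 entered none of these 3 comparisons, and its DC1 wells can be set beside the DC0 and DC2 wells of library 8. The gene sets were taken from a fit without library 8, which called 17 genes higher and 6 lower than DC0 (0.843% and 0.297% of 2017 tested) and 13 higher and 25 lower than DC2 (0.645% and 1.24%). All 17 genes higher than DC0 were also higher in DC1 of library 9 than in DC0 of library 8, with a median log2 ratio of 1.5, where 51.8% of all tested genes lay that way. Of the 6 genes lower than DC0 5 were lower (median -1.14, 48.2% of all genes). Of the 25 genes lower than DC2 23 were lower (median -0.62, 51.4% of all genes). Of the 13 genes higher than DC2 only 8 were higher, with a median of 0.083, where 48.6% of all genes lay that way. The first 3 sets thus kept their direction in wells that the fit had not used, and the fourth was near the share of all genes. Libraries 8 and 9 were 1 library each, so this has no test, and library, sort and run cannot be told apart.

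Between the DC1 wells of library 9 and those of libraries 1 to 7, 0 of 512 tested genes passed (0.0%) by edgeR and 0 by DESeq2, and 7 had an unadjusted p under 0.05. The filter kept genes counted above its minimum in all 8 libraries, so a gene near 0 in library 9 or in the others was not among them. With no filter on low counts, 2 of 14499 genes passed (0.0138%). Sox10 was higher in library 9 (4.21, SE 0.787, adjusted p = 6.53e-04). Beta-s, a haemoglobin gene of red blood cells, was lower (adjusted p = 2.99e-19), with 1 UMI in library 9 and 597 in libraries 1 to 7, a ratio of 1745 after scaling to depth (95% counting interval 312.1 to 69056). Library 9 is a single library in these tests, so their p-values take its spread from libraries 1 to 7.

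Single wells mostly showed several markers at once. In library 9 all 5 markers were seen with at least 1 UMI in 60 wells (50.8%), 4 of them in 31 wells and none in 3. In libraries 1 to 7 all 5 were seen in 12 of 29 wells, and among Fb wells in 0 of 1284, with none seen in 557 (43.4%). Thinned to 3000 UMIs per well, the 5 markers summed to a median of 6 UMIs in library 9 and 5 in libraries 1 to 7, against 3 in DC0 and 9 in DC2 of library 8 and 0 in Fb. DC1 thus lay between its neighbours in the summed markers. Cxcr4 was seen in 90 wells of library 9 (76.3%), in 43 DC0 wells (40.2%) and in 66 DC2 wells (82.5%) of library 8. The 3 wells of library 9 with no marker were well 15 (3343 UMIs), well 87 (1903 UMIs) and a well of 2827 UMIs, all shallow. Kcnq1ot1, an imprinted long non-coding RNA, gave 520 of the UMIs of well 15 and 513 of those of the last.

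Each DC1 well was then set against reference profiles of DC0, DC1, DC2 and Fb from libraries 1 to 7, without its own library, and given to the population under which its UMIs were most likely. Of the wells of library 9, 68 were nearest to DC1 (57.6%, exact 95% interval 48.2 to 66.7), 43 to DC2 (36.4%), 7 to DC0 (5.93%) and 0 to Fb. Of 29 wells of libraries 1 to 7, 15 were nearest to DC1 (51.7%), 8 to DC2, 4 to DC0 and 2 to Fb. The 2 wells nearest to Fb were shallow, with a median of 1330 UMIs, and held 0 UMIs of the 5 markers. As a description of what sorted the wells of library 9, those nearest to DC2 held 530 CPM of Twist2, 297 of Inhba and 1189 of Nrp2, and those nearest to DC1 held 1357, 88.8 and 691 CPM. The median depth of the nearest-DC2 and nearest-DC1 wells of library 9 was 10063 and 10448 UMIs. Twist2 and Inhba differed in the same direction between the nearest-DC2 and nearest-DC1 wells of libraries 1 to 7. Nrp2 did not, and was lower there in the wells nearest to DC2 than in those nearest to DC1.

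Sums of the tested genes per well showed the DC1 wells overlapping with both neighbours (the plot of summed genes per well). Over 114 wells of library 9 thinned to 3000 UMIs, the 29 genes lower in DC1 than in DC2 summed to 3 to 63 UMIs, with a median of 20.5, against medians of 40 in DC2 and 10 in DC0 of library 8. The 30 genes higher in DC1 than in DC2 had a median of 78, closer to the 71 of DC2 in library 8 than to the 132.5 of DC0. In libraries 1 to 7, which were used in choosing these genes, that median was 93. The 23 genes higher than in DC0 summed to a median of 40 in library 9, between 15.5 in DC0 and 52 in DC2 of library 8. Across the 114 wells the 2 DC2-related sums had a Pearson r of -0.55 and a Spearman rho of -0.59, over wells that share a library and a fixed number of UMIs.

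**Figure D3:**
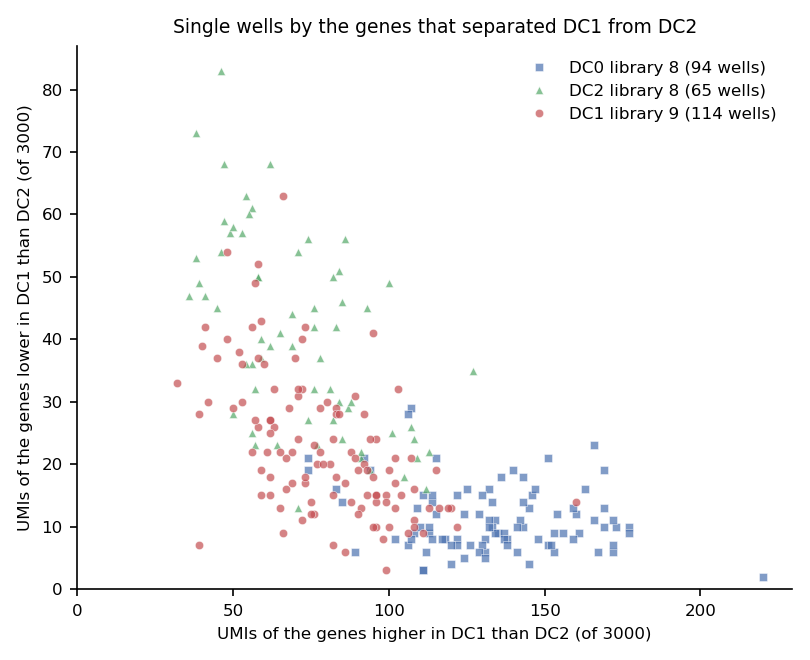
Each point is a well thinned to 3000 UMIs, with the summed UMIs of the 30 genes higher in DC1 than in DC2 on the horizontal axis and of the 29 genes lower in DC1 than in DC2 on the vertical axis. The 114 DC1 wells of library 9 lie between the 94 DC0 and 65 DC2 wells of library 8 on the vertical axis (medians 20.5, 10 and 40) and overlap with both; library 8 entered the choice of genes and library 9 did not.

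Cycling cells were a minority of DC1 wells. At least 10 UMIs of 54 listed G2 and mitosis genes were found in 27 of 114 thinned wells of library 9 (23.7%, 16.2 to 32.6) and in 5 of 25 of libraries 1 to 7 (20%). The same limit was passed by 24 of 94 DC0 wells (25.5%) and 1 of 65 DC2 wells (1.54%) of library 8 and by 522 of 1155 Fb wells (45.2%). For S phase genes the shares were 18.4% in library 9, 26.6% in DC0 and 3.08% in DC2 of library 8, and 44.2% in Fb. Within libraries 1 to 7 the S phase share was 16% in DC1, 33.3% in DC0 and 0% in DC2, and the G2 and mitosis share was 33.3% in DC0 and 4.55% in DC2. By both lists the DC1 shares lay between those of DC0 and DC2, and below Fb; the exact intervals of DC1 and DC0 overlapped. In the test over summed wells these lists gave few calls: 1 of 12 S phase genes (Mcm3, a subunit of the replicative helicase, at 2.22, adjusted p = 0.0167, lost without library 3 or 6 at 0.0893 and 0.088) and 0 of 20 G2 and mitosis genes were higher than in DC2, with medians of 1.29 and 1.16. Mki67, a marker of dividing cells, stood at 283 ± 327 CPM against 408 ± 65.4 in Fb (-0.81, adjusted p = 0.259), and Ccna2, cyclin A2, was lower than in Fb (-1.33, adjusted p = 0.00832). Of 9 tested genes that restrain the cycle 5 were higher and 2 lower than in Fb (median 0.95), with Cdkn1a, the inhibitor p21, at 507 ± 270 against 51.9 ± 17 CPM (3.26, SE 0.429).

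Spread between wells was measured as the Fano factor, the variance over the mean of UMIs, which is near 1 for pure counting noise. In library 9, 998 genes had a mean of at least 0.5 UMIs in wells thinned to 3000, and their median Fano factor was 1.24, with 95 genes (9.52%) above 2. In DC0 and DC2 of library 8 the median was 1.3 and 1.28, and the shares above 2 were 11.9% and 10.5%, so the 3 populations were alike by this measure, which was not tested. Cdkn1c had a Fano factor of 15.2 (0 to 57 UMIs per well), and 12.4 without its highest well. Crabp1 followed with 8.79, Col3a1 with 6.24 and the imprinted genes H19 and Dlk1 with 6.16 and 5.74, while Cdkn1a had 3.97. Over the 114 wells Cdkn1c and Cdkn1a, which both encode inhibitors of cyclin-dependent kinases, had r of 0.56 and rho of 0.33. The markers had lower Fano factors: Nrp2 2.84, Sox18 2.05, Sox2 2.00, Foxd1 1.93 and Cxcr4 1.34, while Twist2 had 2.79. Their mean thinned UMIs ran from 0.61 (Sox2) to 2.45 (Nrp2), against 20.5 for Col3a1 and 6.04 for Cdkn1c. A Fano factor depends on the mean, so these values do not rank genes of unlike level by their spread. Over the 10 pairs of markers r ran from -0.15 to 0.36, the latter for Sox2 and Sox18 (rho 0.30).

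Some of the largest Fano factors came from 1 well. Kcnq1ot1 had 110, but 7.54 without its highest well, well 15 of library 9, which held 459 of its UMIs among 3000. Gm17821, Vmn2r55, A630089N07Rik and Grk4 had 77.1, 60.0, 52.6 and 25.4, and 4.37, 3.8, 2.91 and 2.70 without their highest well. In contrast Rn45s, the ribosomal RNA precursor, kept 80.6 of 89.3, and Malat1, a nuclear non-coding RNA, 9.12 of 10.8.

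**Figure D4:**
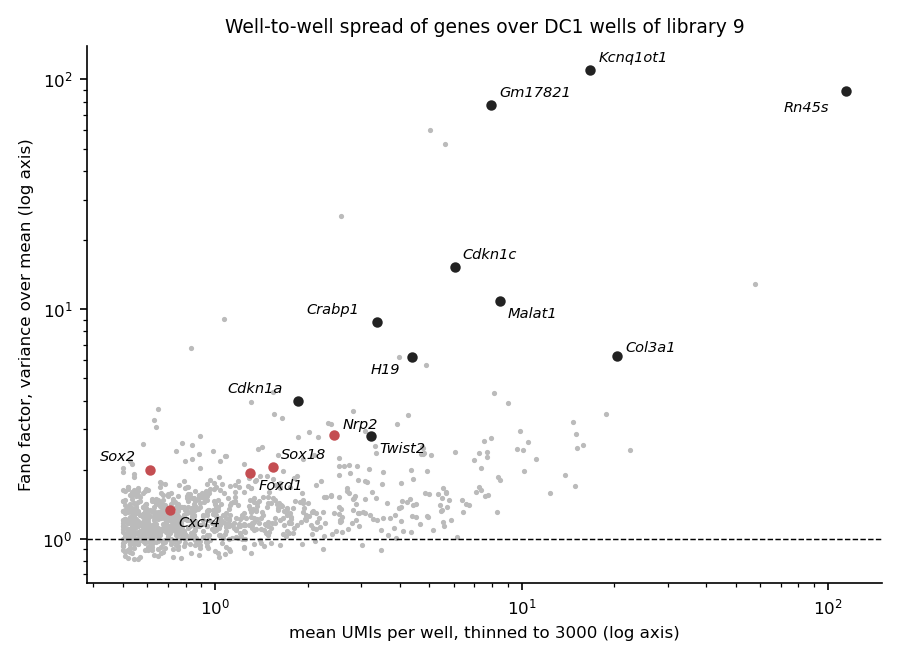
Mean UMIs (horizontal, log axis) and Fano factor (vertical, log axis) of 998 genes over 114 DC1 wells of library 9 thinned to 3000 UMIs; each point is a gene and the dashed line marks the value of 1 expected of counting noise. The median is 1.24, and Kcnq1ot1 (110) and Rn45s (89.3) stand highest. Cdkn1c (15.2) and Crabp1 (8.79) stand above the 5 markers (1.34 to 2.84), whose means are lower.

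Krt5 (chr15:101707070-101712898, minus strand) was seen in 104 DC1 wells of library 9 (88.1%, exact 95% interval 80.9 to 93.4), with 313 UMIs or 218 CPM in all. In libraries 1 to 7 it was seen in 17 of 29 DC1 wells (58.6%, 38.9 to 76.5) and 54.4% of Fb wells, with 81.5 and 82 CPM over all their UMIs. In library 8 it was seen in 6.54% of DC0 and 3.75% of DC2 wells. At equal depth of 3000 UMIs the shares were 50.9% in DC1 of library 9, 20% in DC1 and 20.7% in Fb of libraries 1 to 7. DC0 and DC2 wells of libraries 1 to 7 held it in 56.5% and 23.1%. The shares thus differed widely between libraries. The wells named for spike-ins, which carry no cell name and had a median of 431 UMIs, held Krt5 in 14 of 16 cases in library 9 (87.5%; 24 UMIs, 2250 CPM), 0 of 16 in library 8 and 31 of 112 in libraries 1 to 7 (27.7%). The 20 keratinocyte markers summed to 581 CPM in DC1 of library 9 with 1 of 20 at 0, to 218 CPM in DC1 of libraries 1 to 7, and to 5813 CPM in the spike-in wells of library 9. The share of DC1 wells with Krt5 in library 9 was about that of spike-in wells of far lower depth, and whether DC1 cells express Krt5 was not tested.

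Wells of library 9 without and with Krt5 differed little in mean Sox2, Sox18 and Foxd1, and the differences were not tested. Sox2 and Sox18 were lowest in the 13 wells without Krt5, and Foxd1 in those with 3 or more UMIs. In 13 wells with 0, 51 with 1 or 2 and 50 with 3 or more Krt5 UMIs, the mean thinned UMIs were 0.46, 0.65 and 0.62 for Sox2, 1.38, 1.57 and 1.56 for Sox18, and 1.38, 1.41 and 1.16 for Foxd1. Krt14, the partner keratin of Krt5, had 0.08, 0.20 and 0.28. The median depth of the 3 sets was 12168, 9886 and 14437 UMIs.

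The shares of wells with Sox10 (chr15:79154908-79165240, minus strand) differed from those with Krt5. Sox10 was seen in 52 DC1 wells of library 9 (44.1%, 34.9 to 53.5), with 248 UMIs (173 CPM) and up to 19 in a well, and in 0 of 16 spike-in wells there. These spike-in wells held 10666 UMIs in all, where a gene at the DC1 level of Sox10 would give few UMIs. In libraries 1 to 7 Sox10 was seen in 4 of 29 DC1 wells (13.8%, 5 UMIs, 10.2 CPM), and in 21.6% of Fb wells (13.8 CPM). In library 8 it was seen in 58 DC0 wells (54.2%, 63.5 CPM) and 50 DC2 wells (62.5%, 71.0 CPM), with at most 4 and 6 UMIs in a well. Thinned to 3000 UMIs the shares were 26.3% in DC1 of library 9, 14.9% and 18.5% in DC0 and DC2 of library 8, and 2.77% in Fb. The tags were concentrated: 22 wells of library 9 had 5 or more, and the 12 highest held 53.6% of these UMIs.

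**Figure D5:**
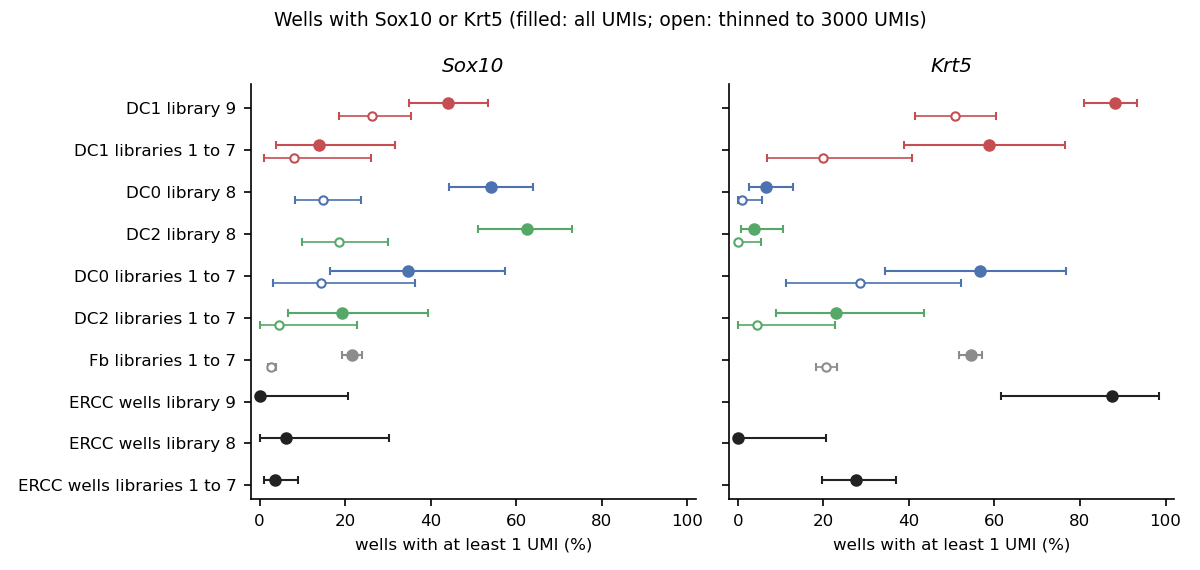
Share of wells in percent (horizontal axis) with at least 1 UMI of Sox10 or Krt5 in DC1, DC0, DC2, Fb and spike-in wells (vertical axis), with exact 95% intervals. Filled points use all UMIs and open points wells thinned to 3000 UMIs. Krt5 is seen in 88.1% of DC1 wells and 87.5% of spike-in wells of library 9. Sox10 is seen in 44.1% of DC1 wells and in no spike-in well of that library, whose spike-in wells held 10666 UMIs in all.

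Other Schwann cell genes accompanied Sox10 in part. Of the 16 Schwann and neural crest markers, Erbb3 and Cdh19 were at 0 in library 9, and 10 of 16 were at 0 in DC1 of libraries 1 to 7. Ngfr, the p75 neurotrophin receptor, gave 69.8% of the list's UMIs in library 9 and 93.3% in libraries 1 to 7. Ngfr is itself high in condensate wells (seen in 109 DC1 wells of library 9, and 3.02 higher than in Fb, SE 0.333). Without Ngfr the list stood at 407 CPM in library 9, 57.1 in DC1 of libraries 1 to 7, 156 and 185 in DC0 and DC2 of library 8, and 101 in Fb. In library 9 Fabp7, a fatty acid binding protein of glia, was seen in 26 wells, Gfra3, a neurotrophic factor receptor, in 14, and Foxd3, a neural crest factor, in 12.

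Wells of library 9 of at least 3000 UMIs were grouped by Sox10 into 63 with 0, 20 with 1 or 2 and 31 with 3 or more UMIs, with median depths of 10216, 9971.5 and 15425. Mean thinned UMIs over these sets were 0.79, 0.45 and 0.35 for Sox2, 1.79, 1.5 and 1.06 for Sox18, 1.32, 1.35 and 1.23 for Foxd1, 0.73, 0.70 and 0.68 for Cxcr4, and 2.21, 2.95 and 2.61 for Nrp2. Sox2 and Sox18 were thus lower on average in wells with more Sox10, while Foxd1 and Cxcr4 differed little. Fabp7 had 0, 0.20 and 0.23 and Gfra3 0, 0.05 and 0.35. Single wells differed: well 40 (19 UMIs of Sox10) had 0 of Sox2 and Sox18 and 4 of Foxd1, whereas well 80 (also 19) held all 5 markers. Well 101 had 9 UMIs of Sox10, 8 of Fabp7 and 5 of Foxd3, together with 7 of Sox18 and 0 of Sox2. Whether such wells hold another cell, a doublet or free RNA was not tested.

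Marker lists of other cell types were summed in the same way. Endothelial markers summed to 61.4 CPM in library 9 and 63.2 in libraries 1 to 7, immune markers to 13.9 and 65.2, muscle markers to 13.2 and 38.7, and melanoblast markers to 112.96 and 44.9. The 4 of 7 listed red blood cell markers that were matched had 0 UMIs in library 9 and 15 in libraries 1 to 7. Beta-s, which is not on that list, was seen in 1 DC1 well of library 9 but in 29 of 29 DC1 wells of libraries 1 to 7 (1217 CPM). In the same libraries Beta-s stood at 1297 CPM in Fb, and it was seen in 92.0% of spike-in wells (14934 CPM). It passed in none of the 3 comparisons within libraries, with log2 fold changes of 0.37 against DC0, -0.098 against DC2 and -0.21 against Fb (adjusted p = 0.777, 0.927 and 0.619). Pericyte and smooth muscle markers stood at 224 and 165 CPM, near the 220 CPM of Fb. The neuron list stood at 440 and 267 CPM against 909 in DC2 of library 8. Stmn2 and Gap43 are members of that list, and DC2 of library 8 entered their test. The shared direction is therefore no separate evidence for those calls.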

How the data were processed

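The members and the gene lists were chosen with earlier results of these data known. The authors deposited expected counts for 20284 genes: per the values, each whole UMI number adjusted for collisions in a space of 4096 UMIs and rounded to 2 decimals (0 of 1323 distinct values were off by more than 0.005), with no scaling between wells. Rounding to whole numbers for the count tests altered 13.3% of 7441672 non-zero values; the design had been written for whole counts. The submitters' processing notes name BWA 0.6.2-r126, Bowtie2, TopHat2 2.0.3, Cufflinks 2.1.1 and the build mm10, and give none of these tools a role; per the labels' protocols libraries were made by SORT-seq on a NextSeq500. Gene positions are from the GENCODE annotation of that build.

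For each library and population, the UMIs of its wells were added up (at least 2 wells of at least 1000 UMIs). DC0, DC1, DC2 and Fb sums of libraries 1 to 8 were fitted together with edgeR 4.0.16 (glmQLFit, glmQLFTest, TMM, filterByExpr) in R 4.3.3, with library as the blocking factor and p adjusted by Benjamini-Hochberg over all genes tested (threshold 0.05). Lists are described by counts and medians. A gene could pass the filter through any population, so these counts were partly set by which genes it kept. How many of all tested genes had no overlap between libraries was not counted. Statements of no overlap describe the named genes only. Single values of some members of the Schwann and neural crest list are not reported here. Library 9 holds DC1 but no other cell population and was compared with DC1 of libraries 1 to 7 in a separate fit. In the blocked fit, p-values rest on how population differences varied from library to library, after level differences between libraries were removed. In the library 9 fit they rest on the spread between DC1 sums of libraries. Since the libraries are not stated to be separate animals, either spread may be technical. Wells were thinned to 3000 UMIs where depth would matter, leaving out shallower wells (4 in library 9 and 4 in libraries 1 to 7). Nearest populations used a multinomial likelihood with a pseudocount of 0.5 per gene. Shares have exact (Clopper-Pearson) 95% intervals, which cover counting error only. No doublet caller was run, since cells were sorted into wells. Genes named were members of the lists, the 8 largest rises and falls of each comparison (adjusted p under 0.05, log2 fold change of at least 1, average log2 CPM of at least 5), the 25 highest genes and the 20 with the largest Fano factor, of which the text names a part. Scripts were tested on simulated data. Alternatives were DESeq2 1.42.0, RLE scaling, no filter, no replicate block, other well and UMI minimums, leaving out each library, libraries by run code, and leaving out DC1 wells with Sox10 or Krt5. Wells of the other populations with these genes were kept in that last setting. The comparison of library 9 with library 8 and the Fano factors without the highest well were added after seeing the data.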

Additional observations from a re-analysis of the deposited data

Results flagged for a closer look

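Of 70 genes whose DC1 levels the text uses, a set narrowed after their values were seen, 16 (22.9%) had a DC1 library that stood far from the other 7 by the ratio of its gap to the whole range; chance flags about 1 in 20. These sums hold as few as 2 wells, and the genes are not independent of each other.

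Library 1 stood apart for Cdkn1c (7877 CPM against a median of 1418), Crabp1 (4669 against 1117) and Prdm1 (674 against 226) on the high side, and for Nid1 (433 against 1135) on the low side. Library 2, the shallowest, stood high for Cxcr4 (398 against 135), Fzd2 (1044 against 460), Hhip (1093 against 183) and Lrrc15 (298 against 64.4). Library 4 stood high for Cdon (97.4 against 27.4), Col3a1 (10594 against 5807), Cyp26b1 (1305 against 602) and Gas1 (331 against 166), and low for Col1a1 (526 against 1597). Library 6 had 12.2 CPM of Lox where the median was 0. Library 9 stood high for Sox10 (173 against 3.06) and had 2.09 CPM of Ogn, where libraries 1 to 7 had 0 UMIs and the deeper library 9 could show lower levels.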

How the results depend on the processing

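Against DC0, the 23 higher and 4 lower genes became 26 and 7 with DESeq2, 48 and 8 with no filter, 10 and 4 without wells holding Sox10 or Krt5, 1 and 1 in libraries 3, 5, 6 and 7 (shared run code), and 1 and 0 in libraries 1, 2 and 4; leaving out a library gave 14 to 24 and 1 to 9. Against DC2, the 30 and 29 became 19 and 33 with RLE scaling, 32 and 48 with DESeq2, 14 and 26 with at least 3 wells per sum, 81 and 44 with no filter, 5 and 11 in the shared run, 0 and 0 in libraries 1, 2 and 4, and 0 and 0 without wells holding Sox10 or Krt5 (Mcm3 turned to -0.11); leaving out a library gave 11 to 31 and 12 to 29. Against Fb, the 370 and 335 became 525 and 1162 with no filter, 117 and 88 in libraries 1, 2 and 4, and 117 and 180 without wells holding Sox10 or Krt5, while leaving out a library kept both counts within 1.5 times. The setting without wells holding Sox10 or Krt5 left out DC1 wells only. It kept 10 DC1 wells in libraries 1 to 7, with at least 2 in 3 of these libraries. The run subsets also keep fewer libraries and wells. Why the counts changed under any of the settings was not tested. Of 1705 values of single genes under the alternatives, 1453 kept their call and direction, 251 lost the call and 1 reversed. These are the genes named in the text, a set narrowed after their values were seen; of the genes then left out, Actg1, Eef1a1, Ptma and Tpt1 reversed against Fb with no filter or without wells holding Sox10 or Krt5.

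The replicate block is the library, which pairs populations processed together. With no replicate block the counts were 22 and 4 against DC0, 28 and 41 against DC2, and 404 and 327 against Fb, all within 1.5 times the blocked counts; of the named genes 2 of 21, 1 of 20 and 0 of 61 lost their call.

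Library 9 against libraries 1 to 7 gave 1 gene higher and 1 lower with no filter. Krt5 was in 58.6% of DC1 wells of libraries 1 to 7, 24.1% at 2 or more UMIs and 20% when thinned, and in 88.1%, 67.8% and 50.9% of library 9. Sox10 was in 13.8% and 3.45% (2 or more UMIs) of libraries 1 to 7, and in 44.1%, 32.2% and 26.3% of library 9. With wells of at least 3000 UMIs, 0% of DC1 wells in libraries 1 to 7 were nearest to Fb, against 6.90%. The 29 wells of libraries 1 to 7 and their 20122 to 163535 UMIs per library limit what could pass.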
